A study of Mus musculus with 6 samples.

Results

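The genes described here encode voltage-gated and related ion channels and their auxiliary subunits. They were taken by name, as every probe whose gene symbol begins with Kcn (potassium channels), Scn and a digit (sodium channels), Cacn (calcium channels) or Hcn and a digit (hyperpolarization-activated channels), with the noncoding RNA Kcnq1ot1 left out. That gave 168 of the array's 25697 probes, for 110 of the 16593 genes with a symbol. Expression was measured on 6 Illumina bead arrays in E14, a mouse embryonic stem cell line, with 3 samples that carried the empty pSuper vector (control) and 3 that carried an shRNA against REST in place of it (knockdown), each after 72 h. Cells cut an shRNA, a short hairpin, into a small RNA that guides the breakdown of matching transcripts. The hairpin's sequence, and whether more than 1 was used, are not stated in the labels. No label tells whether replicates came from different cultures. The p-values thus reflect only how far these 6 samples scatter, and that scatter may be technical.

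Voltage-gated channels are membrane pores that open when the voltage across the membrane changes, and they carry the action potential, pacemaker currents and the calcium entry that triggers transmitter release. Potassium channels with 2 pore domains and inward rectifiers set the resting potential, and auxiliary subunits steer the traffic and gating of the pores. REST is a repressor that binds a DNA element called RE1 and silences neuronal genes outside neurons, and the element was first characterised in part in a rat brain sodium channel gene. Embryonic stem cells are not excitable cells. The comparison addresses which channel genes differ between cells with the REST hairpin and cells with the empty vector. No control carried another hairpin, so effects of lowered REST and other effects of the hairpin cannot be told apart.

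The knockdown itself could not be seen, since the 1 probe for Rest was not above background on any array. Arrays were similarly bright, with mean intensities of 442 to 473. All 10 embryonic stem cell markers examined, Pou5f1, Sox2 and Nanog among them, were above background on all 6 arrays. Of these, Dppa4 and Zfp42 rose (20%) and Pou5f1 fell (10%), beside 13.9% and 13.1% of all tested genes. The summed intensity of the 10 markers was 93598 to 98660 in control and 91167 to 94337 in knockdown samples. Of 10 neuronal markers, 4 were above background on all arrays and 6, including Tubb3, Dcx, Snap25 and Syt1, on none. Of those 4, Elavl3, Map2 and Rbfox3 rose and Stmn2 fell. The summed intensity of the neuronal markers was 2027 to 2310 on control arrays and 1784 to 2205 on knockdown arrays. Of 10 fibroblast markers 6, and of 9 heart and skeletal muscle markers with a probe 7, were above background on no array. The summed intensities were 441 to 663 in control and 406 to 464 in knockdown samples for the fibroblast markers, and 16.1 to 46.3 and 6.5 to 35.9 for the muscle markers. The part of other cell types in the results that follow was not tested. In a bulk sample, fewer cells that express a gene and less RNA per cell cannot be told apart.

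Most channel genes were too dim to measure in these cells. A probe was counted as above background on an array when its detection p was under 0.05, and it was tested when this held on at least 3 of the 6 arrays. Of the 168 channel probes, 37 were tested (22%), against 48.3% of all probes. Between 20.8% and 25.6% of channel probes were above background on an array, compared with 46.4% to 49% of all probes. The number per array was 37, 40 and 36 on the 3 control arrays and 43, 36 and 35 on the 3 knockdown arrays, so the groups overlapped. By gene, 18 of 110 had a probe above background on all 6 arrays, 19 only on 1 or 2 arrays, and 59 on none. No channel gene was above background on all arrays of one group and on none of the other.

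**Figure D1:**
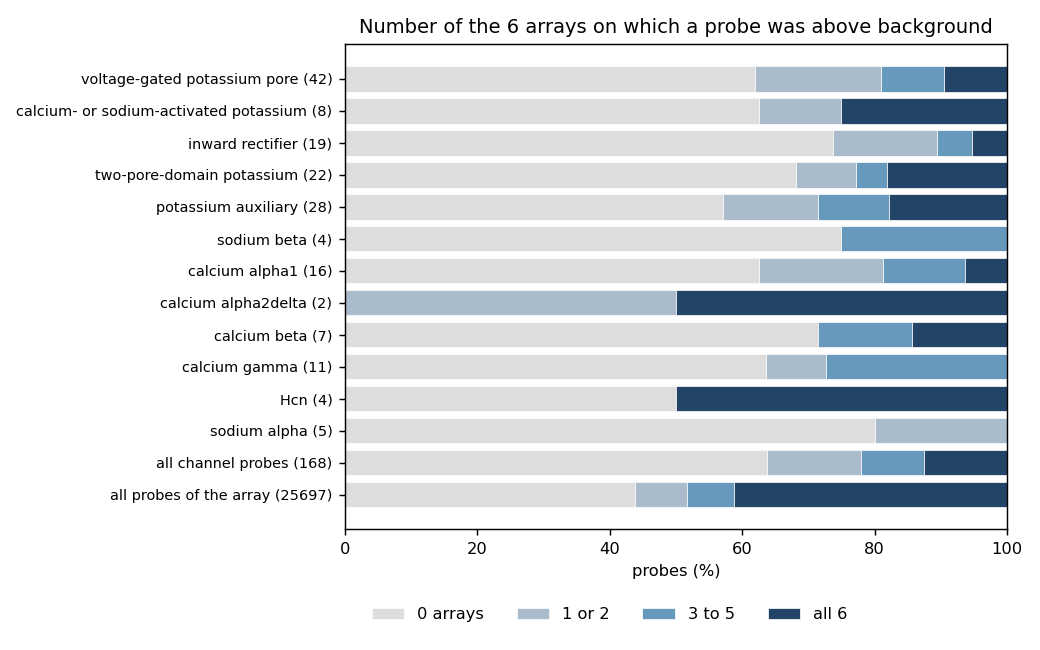
Share of probes (%, horizontal axis) that were above background on 0, 1 or 2, 3 to 5 or all 6 arrays, for each channel sub-family with its number of probes in parentheses, for all 168 channel probes and for all 25697 probes. Of channel probes 63.7% were above background on no array and 12.5% on all, against 43.8% and 41.2% of all probes.

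Sub-families differed in how many members could be measured. None of the 5 sodium channel alpha subunit genes, which form the sodium pore, was tested, and 4 of them were above background on no array. Of 12 inward rectifier genes 2 were tested, of 13 two-pore-domain genes 3, and of 32 voltage-gated potassium pore genes 7. Both hyperpolarization-activated channel genes on the array, Hcn2 and Hcn3, were above background on all arrays. Of 7 genes for calcium channel alpha1 subunits, which form the calcium pore, 3 were tested (Cacna1a, Cacna1b and Cacna1h).

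Among the 32 tested channel genes, 5 rose in knockdown cells (Scn3b, Kcnc1, Hcn3, Cacna1b and Kcnk5), 4 fell (Kcnh3, Kcnh2, Kcnrg and Cacna1h) and 23 did not pass the test. The test was limma's linear model over all 12406 tested probes, called at a Benjamini-Hochberg adjusted p under 0.05, and where a gene had several tested probes, the brightest on average stood for it. The share of channel genes called was 28.1%, close to the 27% of all 8740 tested genes that were called. In the upward direction it was 15.6% against 13.9%, and in the downward direction 12.5% against 13.1%. By probe, 6 were higher and 6 lower, together 32.4% against 25.9% of all tested probes (12.8% higher and 13.1% lower). The control and knockdown arrays did not overlap for 15 of the 37 probes (40.5%), against 43.3% of all tested probes. The median log2 change was -0.02 over channel genes and 0.00 over all tested genes, and the median size of the change, whatever its sign, was 0.24 and 0.23. Channel genes were thus called about as often as all tested genes. A change of at least 2-fold with a call was a larger share of the channel probes, at 4 of 37 (10.8%; Scn3b, Kcnc1, Hcn3 and Kcnh3), against 2.72% of all tested probes, and this difference was not tested. Of the 4, Kcnh3 was under 2-fold when each array was held at no less than its background level. In the authors' processed ratios 70% of all calls were higher, against 49.5% here, and of the channel probes 6 were higher and 5 lower. The median log2 change over all tested probes was 0.09 in those ratios and -0.01 here, so the ratios were shifted upward over the array.

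**Figure D2:**
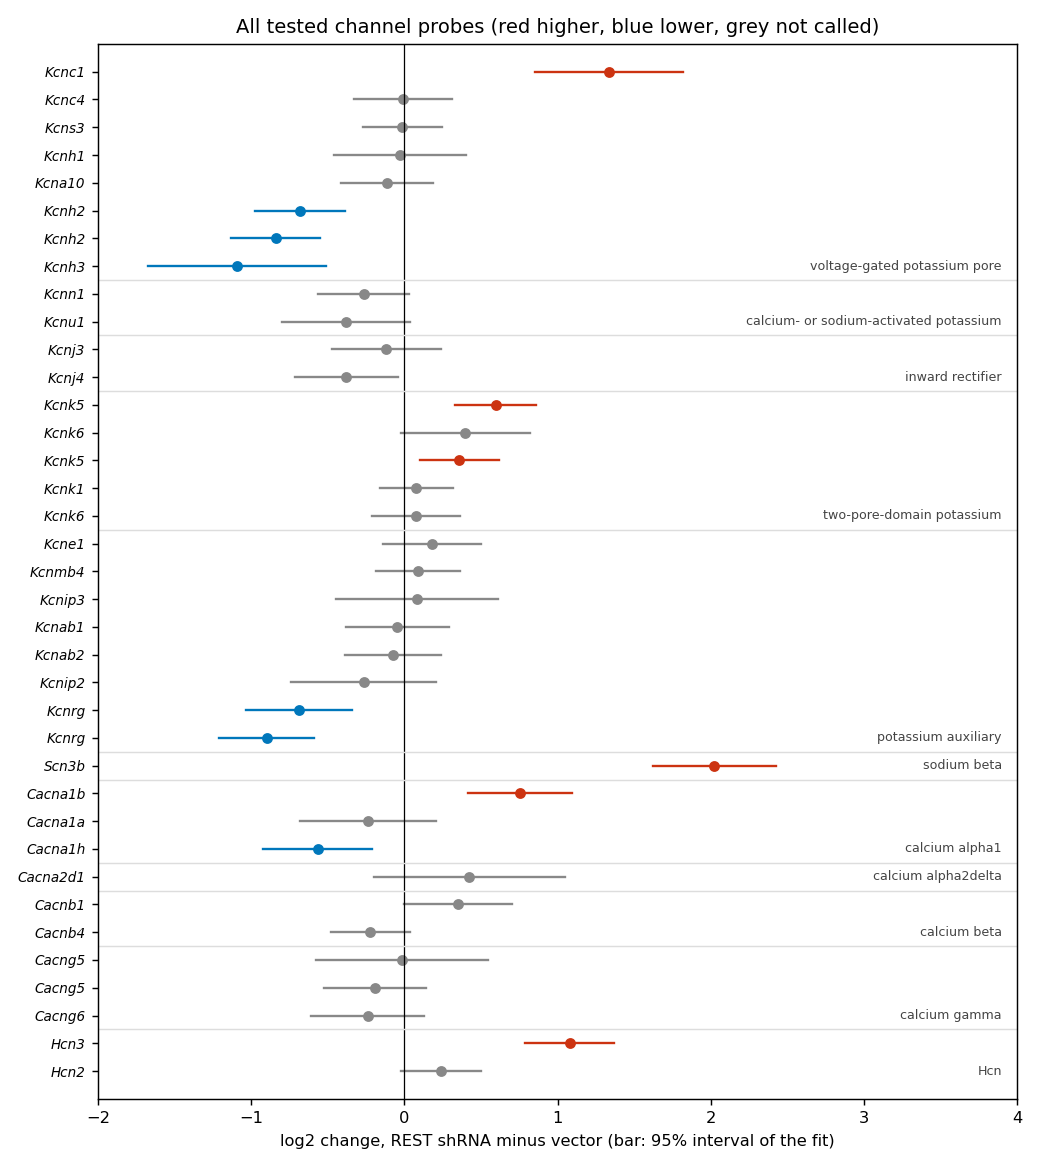
Log2 change (knockdown minus control, horizontal axis) of the 37 tested channel probes by sub-family, where points are estimates and bars the 95% interval of the fit over 3 arrays per group. The 6 higher probes are red, the 6 lower blue and the 25 without a call grey, and Scn3b lies farthest from 0 at 2.02.

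Scn3b, which encodes an auxiliary beta subunit of voltage-gated sodium channels, had the largest change of the tested channel genes. On the log2 scale its level was 4.64, 5.13 and 5.03 on the 3 control arrays and 7.27, 6.70 and 6.89 on the 3 knockdown arrays. Every knockdown array was far above every control array, and only 1 control array was above background. The log2 change was 2.02 ± 0.18 (SE, n = 3 per group; limma adjusted p = 0.000212), which is 4.06-fold, or 3.73-fold with each array held at no less than its background level. A second probe for Scn3b was below background on all arrays, with intensities of -9.5 to 1.0 in control and 7.1 to 10.7 in knockdown samples. The other sodium beta subunits on the array, Scn2b and Scn4b, were above background on no array.

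Kcnc1 encodes the pore of a fast delayed-rectifier potassium channel (Kv3.1) that lets some neurons fire at high rates. Its level was 5.55, 4.92 and 5.51 in control and 7.0, 6.69 and 6.29 in knockdown samples, on the log2 scale. The groups were separate, with the lowest knockdown array above the highest control array, although 1 of the control arrays was not above background. It rose 2.52-fold (1.33 ± 0.21 on the log2 scale, SE, n = 3, with an adjusted p of 0.00317 by limma). With each array held at no less than its background level, Kcnc1 rose 2.47-fold. Its close relative Kcnc4 (Kv3.4) had a log2 change of -0.01, with a 95% interval of -0.33 to 0.31, and was not called.

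Hcn3 encodes a cation channel that opens on hyperpolarization. Control arrays read 6.74, 6.77 and 6.40 and knockdown arrays 7.63, 7.69 and 7.82 on the log2 scale. The spread within each group was small beside the gap between them. The rise was 2.11-fold (1.08 ± 0.13 on the log2 scale, SE, n = 3, with an adjusted p of 0.000965 by limma). The related Hcn2, a pacemaker channel of heart and brain, had a log2 change of 0.24 (95% interval -0.02 to 0.50; adjusted p = 0.163), and the difference between the Hcn2 and Hcn3 changes was not tested.

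Cacna1b encodes the pore of the N-type calcium channel, which feeds transmitter release at nerve terminals. It read 5.43, 5.44 and 4.92 in control and 5.95, 6.07 and 6.01 in knockdown samples (log2). The 3 knockdown arrays lay close together and above all control arrays, of which 2 were above background. It rose 1.68-fold, or 1.62-fold with each array held at no less than its background level (0.75 ± 0.15 on the log2 scale, SE, n = 3, with an adjusted p of 0.00773 by limma).

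Kcnk5 encodes a background potassium channel with 2 pore domains (TASK-2) that responds to pH. Its brightest probe read 10.02, 10.02 and 10.10 in control and 10.61, 10.49 and 10.83 in knockdown samples (log2), with no overlap. It rose 1.51-fold (0.60 ± 0.12 on the log2 scale, SE, n = 3, with an adjusted p of 0.00712 by limma). A second tested probe gave 0.36 ± 0.11 (adjusted p = 0.0464), a call that was lost without any 1 of the 6 arrays, with adjusted p between 0.0539 and 0.139, and with median scaling (0.0649), without the filter on dim probes (0.0561) and with the replicate block (0.0580). Another probe, below background throughout, pointed the other way, with intensities of 9.1 to 10.3 in control and -2.0 to 2.7 in knockdown samples.

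**Figure D3:**
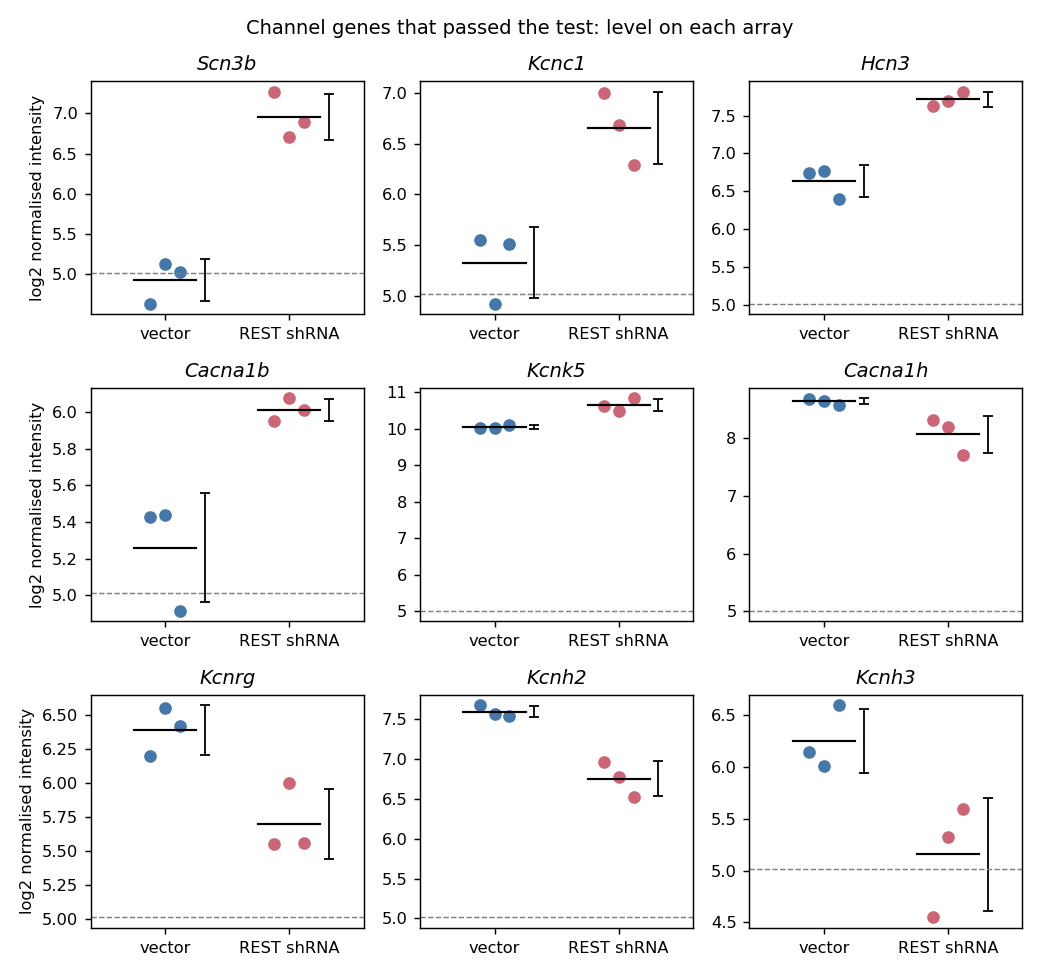
Level (log2 normalised intensity, vertical axis with a different range in each panel) of the 9 called channel genes on each array, by the brightest tested probe, where points are arrays, horizontal lines group means, bars the SD (n = 3) and the dashed line the mean level that counted as above background (5.01). Control and knockdown arrays do not overlap in any panel, and Scn3b, Kcnc1, Cacna1b and Kcnh3 have arrays near or below the dashed line.

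A pair of related genes of the ether-a-go-go family fell. Kcnh2 encodes the ERG channel, which carries a repolarizing potassium current in the heart. Its brightest probe read 7.68, 7.56 and 7.55 in control and 6.96, 6.78 and 6.53 in knockdown samples (log2). All 3 knockdown arrays were below all control arrays, and a second probe separated the groups as well. The log2 changes at these probes were -0.84 ± 0.13 and -0.68 ± 0.13 (SE, n = 3; limma adjusted p = 0.00263 and 0.00633), a fall of 1.79-fold and 1.6-fold. Kcnh3 encodes an Elk-type channel of the forebrain. It read 6.14, 6.01 and 6.60 in control and 4.55, 5.33 and 5.60 in knockdown samples (log2). The groups were separate but the knockdown arrays were widely spread, and 1 of them was not above background. Its log2 change was -1.09 ± 0.26 (SE, n = 3; limma adjusted p = 0.0151), a fall of 2.13-fold, or 1.93-fold with each array held at no less than its background level. Without control replicate 3 it was -0.92 and lost its call (adjusted p = 0.0532). Kcnh1, the remaining tested member of the family, had a log2 change of -0.03 (95% interval -0.46 to 0.40) and was not called.

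Kcnrg encodes a soluble protein that, in human cells, binds the assembly domain of voltage-gated potassium channels and lowers their current. Its brightest probe read 6.19, 6.55 and 6.42 in control and 5.55, 6.0 and 5.56 in knockdown samples (log2), and its other probe 6.27, 6.30 and 5.86 against 5.23, 5.34 and 5.18. Neither probe showed any overlap of the groups. The log2 changes were -0.69 ± 0.15 and -0.90 ± 0.14 (SE, n = 3; limma adjusted p = 0.0119 and 0.00259). In RefSeq the gene overlaps Trim13 and the noncoding RNA Dleu2, and probe sequences were not used here, so which of these transcripts the probes read cannot be told apart.

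Cacna1h encodes the pore of a T-type calcium channel, which opens at small depolarizations. It read 8.68, 8.65 and 8.58 in control and 8.31, 8.19 and 7.70 in knockdown samples (log2). The control arrays were nearly alike, and knockdown replicate 3 was lower than the other two. The log2 change was -0.57 ± 0.16 (SE, n = 3; limma adjusted p = 0.0284), a fall of 1.48-fold. The call was lost without control replicate 1, 2 or 3 (adjusted p = 0.0763, 0.0771 and 0.0574), without knockdown replicate 3 (-0.39; 0.0581), in the authors' ratios (-0.42; 0.0602) and without the filter on dim probes (0.0501). Cacna1a, the P/Q-type pore, had a log2 change of -0.24 (95% interval -0.68 to 0.21) and was not called.

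Further probes bear on 6 of the 9 called genes. These 8 probes, for Cacna1b, Hcn3, Kcnc1, Kcnh2, Kcnk5 and Scn3b, were too dim to be tested, 7 of them above background on no array. The calls therefore rest on 1 probe for Scn3b, Kcnc1, Hcn3, Cacna1b, Kcnh3 and Cacna1h, and on 2 for Kcnk5, Kcnh2 and Kcnrg. Kcnh3 and Cacna1h overlap other genes in RefSeq as Kcnrg does, as do Hcn3 and Kcnh2.

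RefSeq promoter windows, which run from 250 bases before to 50 bases after an annotated start, were at hand for 85 of the 110 channel genes and for 5 of the 9 called ones. They are shown for those 5 so that the sequence at the start of genes that rose (Kcnc1, Cacna1b, Kcnk5) and fell (Kcnh2, Kcnrg) can be compared. The build is GRCm38.p6, with Kcnc1 at chr7:46396218-46396517 (plus strand), Cacna1b at chr2:24763103-24763402 (minus strand), Kcnk5 at chr14:20181733-20182032 (minus strand), Kcnh2 at chr5:24329542-24329841 (minus strand) and Kcnrg at chr14:61607207-61607506 (plus strand). Each is written 5′ to 3′ along the gene, and capitals mark the 50 bases from the start onward.
Kcnc1: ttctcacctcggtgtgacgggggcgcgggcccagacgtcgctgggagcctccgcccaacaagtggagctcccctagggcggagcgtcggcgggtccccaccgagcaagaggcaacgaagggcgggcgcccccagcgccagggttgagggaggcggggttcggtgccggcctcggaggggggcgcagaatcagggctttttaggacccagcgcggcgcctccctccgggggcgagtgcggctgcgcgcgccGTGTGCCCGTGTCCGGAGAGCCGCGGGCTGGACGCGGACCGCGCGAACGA
Cacna1b: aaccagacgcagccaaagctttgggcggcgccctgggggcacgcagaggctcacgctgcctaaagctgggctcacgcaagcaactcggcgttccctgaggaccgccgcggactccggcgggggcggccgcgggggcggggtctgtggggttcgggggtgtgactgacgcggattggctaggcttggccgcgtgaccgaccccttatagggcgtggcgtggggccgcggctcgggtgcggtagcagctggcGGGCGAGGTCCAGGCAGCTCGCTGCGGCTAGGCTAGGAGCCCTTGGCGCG
Kcnk5: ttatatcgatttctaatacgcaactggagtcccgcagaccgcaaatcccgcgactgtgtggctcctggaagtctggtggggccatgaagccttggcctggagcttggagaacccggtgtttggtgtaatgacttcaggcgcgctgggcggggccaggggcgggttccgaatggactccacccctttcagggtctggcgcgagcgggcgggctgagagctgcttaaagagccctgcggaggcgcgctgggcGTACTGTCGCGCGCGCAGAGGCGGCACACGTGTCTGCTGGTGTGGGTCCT
Kcnh2: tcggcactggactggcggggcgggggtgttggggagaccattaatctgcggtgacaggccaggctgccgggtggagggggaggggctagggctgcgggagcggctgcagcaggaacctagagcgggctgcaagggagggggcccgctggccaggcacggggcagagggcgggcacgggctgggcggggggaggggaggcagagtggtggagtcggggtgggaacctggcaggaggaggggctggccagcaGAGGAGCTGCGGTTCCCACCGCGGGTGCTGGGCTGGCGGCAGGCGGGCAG
Kcnrg: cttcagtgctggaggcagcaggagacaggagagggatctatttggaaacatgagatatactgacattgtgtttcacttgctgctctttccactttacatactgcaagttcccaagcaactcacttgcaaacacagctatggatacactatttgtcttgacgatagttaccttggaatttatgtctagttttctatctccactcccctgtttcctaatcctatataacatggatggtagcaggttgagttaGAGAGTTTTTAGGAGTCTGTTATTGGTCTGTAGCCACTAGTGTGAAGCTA

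Scn3b and Hcn3, which also rose, had no window at hand. The windows of Kcnc1, Cacna1b, Kcnk5 and Kcnh2 are richer in G and C than the median of all windows. They hold 74.7% G or C and 41 CpG dinucleotides in Kcnc1, 72.3% and 35 in Cacna1b, and 63.7% and 26 in Kcnk5. Kcnh2, which fell, has 74.3% and 19. Kcnrg differs, at 41.7% with 1 CpG. The median over all windows was 52.7% with 7 CpG, over windows of channel genes 58.3% with 9.5, over those of tested channel genes 63% with 16.5, and over those of channel genes above background on no array 55.7% with 9.

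The letters of the RE1 element were searched on both strands, as its left part TTCAGCACC, the shorter form TCAGCACC that lies inside it, and its right part GGACAGC, also in a longer form with GCC added. None of the 5 windows of called genes holds any of them. GGACAGC is in 12.1% of channel windows and 6.56% of all windows, among tested channel genes in those of Cacnb1, Cacng6, Kcnip3, Kcnj4 and Kcnk1, none of which was called. TCAGCACC is in 0.862% of channel windows and 1.65% of all windows, and TTCAGCACC in 0.862% and 0.371%. The longer right part is in 0% and 0.137%. No difference between these shares was tested. The only channel gene with a left part is Kcnh6, an ERG-type channel related to Kcnh2, which has TTCAGCACC and, 7 bases on, GGACAGC. In a search defined after the windows had been seen, TCAGCACC and GGACAGC on 1 strand with a gap of up to 10 bases occurred in 18 of 32851 windows. The Kcnh6 window, Kcnh6 at chr11:106007898-106008197 (plus strand), is shown for this pair, with the span from the left part to the right one in capitals.
Kcnh6: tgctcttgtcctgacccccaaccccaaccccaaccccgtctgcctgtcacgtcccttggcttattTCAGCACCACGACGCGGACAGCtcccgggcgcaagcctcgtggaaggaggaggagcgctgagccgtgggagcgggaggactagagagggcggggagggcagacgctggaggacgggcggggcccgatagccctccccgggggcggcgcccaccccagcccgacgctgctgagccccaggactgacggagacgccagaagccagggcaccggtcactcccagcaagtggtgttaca

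Kcnh6 itself was too dim to be tested. Its brighter probe had intensities of 9.4, 16.8 and 14.8 in control and 21.7, -4.8 and 8.2 in knockdown samples, above background on 1 array of each group, and its other probe was above background on none. The window covers only the start of each gene, and these letters elsewhere in the genes were not searched.

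Of the channel genes that were tested but not called, the 10 with the highest mean level are given here. For Kcnk1 and Kcnk6, which encode two-pore-domain potassium channels, the log2 change was 0.08 (95% interval -0.16 to 0.31) and 0.07 (-0.21 to 0.36). A second, dimmer tested probe for Kcnk6 had 0.40 (95% interval -0.02 to 0.82, limma adjusted p = 0.149) and was not called either. Kcnk1 read 9.22, 9.41 and 9.26 in control and 9.37, 9.44 and 9.32 in knockdown samples, so the groups overlapped. A missed threshold does not show that a level was the same, and the intervals give the changes that these arrays leave possible.

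Kcnn1, a small-conductance calcium-activated potassium channel, had a log2 change of -0.27 (adjusted p = 0.168), and Kcnu1, a potassium channel of sperm, one of -0.38 (adjusted p = 0.160). Kcnn1 read 7.47, 7.51 and 7.54 in control and 7.38, 7.37 and 6.97 in knockdown samples, with no overlap but a gap that was small beside the spread of the knockdown arrays. Of the auxiliary subunits, Cacnb4, a beta subunit that brings calcium channels to the membrane, had -0.22 (adjusted p = 0.181). Cacna2d1, which supports calcium channel surface expression and binds gabapentin, had 0.42 with a wide 95% interval of -0.20 to 1.05, and its control arrays ranged from 5.64 to 6.88. The potassium channel beta subunit Kcnab2 had -0.07 (adjusted p = 0.729) and the calcium-binding channel partner Kcnip3 had 0.08 (adjusted p = 0.820). With Hcn2 and Kcnc4, described above, these make up the 10.

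The remaining tested members were mostly close to background, and none was called. Kcnj4, a strong inward rectifier, came nearest to the threshold, with 5.48, 5.90 and 5.63 in control against 5.34, 5.48 and 5.06 in knockdown samples and a log2 change of -0.38 (adjusted p = 0.0916). Kcnj4, Kcnh1 and Cacna1a are named after their values were seen. Of the 25 tested channel probes without a call, 16 had a change below 0 and 9 above. The same count was not made over all tested probes, so no lean of the channel genes can be read from it. The median log2 change, with called probes included, was -0.028 over tested channel probes and -0.0063 over all tested probes.

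Proteins that bind or steer these channels, and cation channels outside the named families, changed in both directions too. Of 15 tested channel partners, 3 rose and 3 fell (20% each way), and of 20 tested other cation channels, 3 rose and 3 fell (15% each way), beside 13.9% and 13.1% of all tested genes. The median log2 changes were -0.15 and -0.02. Of the partners, Rims2, which ties calcium channels to the release machinery, rose 2.11-fold (1.07 ± 0.14 on the log2 scale, SE, n = 3, with an adjusted p of 0.00119 by limma). Stx1a, a plasma membrane SNARE protein that also binds N-type channels, rose 1.84-fold (adjusted p = 0.00112). Ank2, a membrane scaffold that anchors channels, rose 1.57-fold, or 1.36-fold with each array held at no less than its background level, since only 1 control array was above background, and its groups overlapped. Stac2, an adaptor of L-type calcium channels, fell by 0.80, the secreted protein Lgi2 by 0.66 and the vesicle SNARE Vamp2 by 0.47 on the log2 scale (largest adjusted p of these 3, 0.0169).

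The Ank2 call (adjusted p = 0.0368) was lost without control replicate 2 or 3 (adjusted p = 0.122 and 0.104) and without knockdown replicate 1 or 3 (0.0741 and 0.120), and without the filter on dim probes (0.0720). The Vamp2 call was lost without control replicate 2 (0.0591) and knockdown replicates 2 and 3 (0.0527 and 0.0505), and in the authors' ratios (0.0960).

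Of the other cation channels, Tpcn2, a lysosomal ion channel, rose 2.10-fold (1.07 ± 0.15 on the log2 scale, SE, n = 3, with an adjusted p of 0.00195 by limma). Mcoln3, a channel of the endolysosomal system, rose 1.85-fold (adjusted p = 0.0103). The inositol trisphosphate receptors, which release calcium from the endoplasmic reticulum, moved in opposite directions, Itpr2 by 0.36 and Itpr3 by -0.66 on the log2 scale (adjusted p = 0.0360 and 0.00386). Scnn1a, a subunit of the epithelial sodium channel, was below background on all knockdown arrays and was at least 1.26-fold lower there (adjusted p = 0.0148). Cngb1, a subunit of cyclic nucleotide-gated channels, fell by 0.47 (adjusted p = 0.0239). Hvcn1, a proton channel, was not called at its brightest probe (0.44; adjusted p = 0.111) but was at another (0.71; 0.00555). It is named after its values were seen.

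The Itpr2 call was lost without any 1 array other than control replicate 1 (adjusted p = 0.103, 0.0952, 0.0767, 0.102 and 0.0764 in order of group and number), with median scaling (0.0613), with a trended and robust variance (0.0795) and with the replicate block (0.0609). The Cngb1 call was lost without control replicate 1 (0.0769) and knockdown replicates 1 and 3 (0.0614 and 0.0805) and in the authors' ratios (0.106), and the Scnn1a call without control replicate 2 (0.0531) and knockdown replicates 2 and 3 (0.0507 and 0.0555).

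The 7 called channel genes other than Cacna1h and Kcnh3 kept their direction and their call under each alternative in which their probe was tested, including each array left out in turn. For Scn3b the log2 change ranged from 1.29 with a larger offset to 2.15, and for Hcn3 from 0.87 to 1.15. For Kcnh2 it ranged from -0.94 to -0.67.

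**Figure D4:**
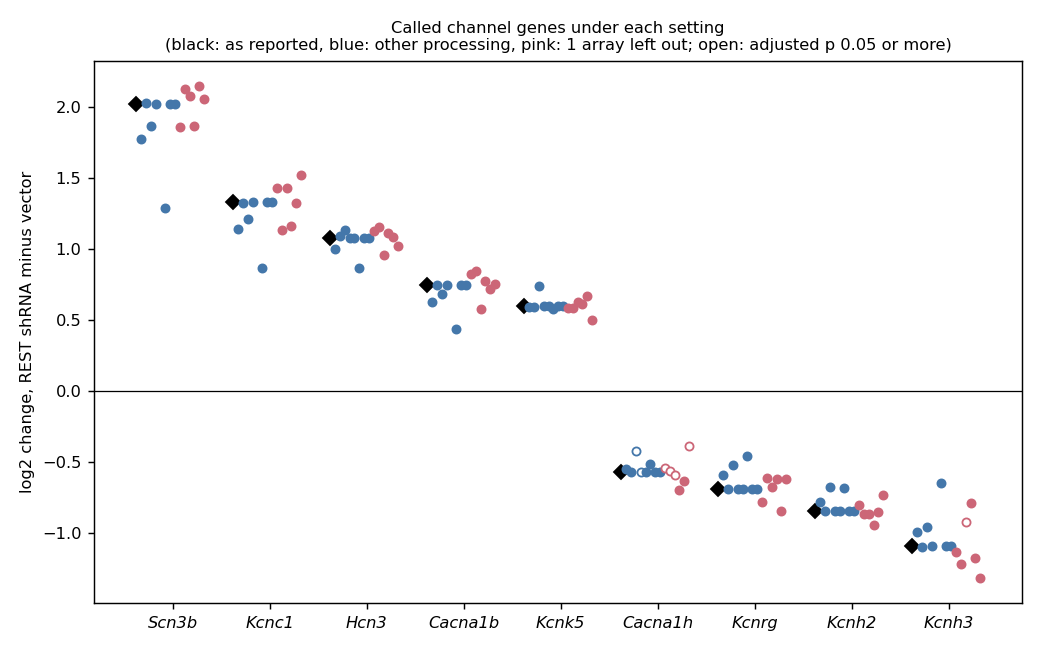
Log2 change (knockdown minus control, vertical axis) of the 9 called channel genes as reported (black diamonds), under other processing (blue) and with 1 array left out (pink), where open points have an adjusted p of 0.05 or more. No gene changes sign, and open points appear for Cacna1h and Kcnh3.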

How the data were processed

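The channel genes, the further gene lists and the tests were chosen with earlier results of these data known. Groups and replicate numbers came from the sample titles. For each array the authors deposited linear probe intensity values, centred on the background and without scaling across arrays, with 25.3% to 26.3% of values below 0. The deposited detection score rose with the intensity, against the p-value its header names, so 1 minus the score was the detection p. The authors also deposited a linear ratio per probe, which equalled, within 0.001 (log2), the intensity less the lowest one of its array, plus 0.1, times a factor for the array and one for the probe. How both were made is not given in the sources used here.

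Intensities were corrected with limma 3.58.1 in R 4.3.3 (normal-exponential model, offset 16), quantile normalized and put on the log2 scale. Probes above background (detection p under 0.05) on 3 or more of the 6 arrays, 12406 in all, were tested across all probes with group as the only term. The fit was also run on simulated data with independent noise and 200 changed probes. Such data cannot show whether the replicates here are independent. Probes were named from the platform annotation, which named 23978 of them with 1 gene symbol each and none with several, and left 1719 unnamed. Named genes were all called channel genes, those above background on all arrays of one group and none of the other, the 10 uncalled ones with the highest mean, and all called genes of the lists. With 3 arrays a group, the number of arrays limits the precision. Deviations of same-numbered arrays had correlations of -0.062, 0.032 and 0.041, and the numbers were not used to pair arrays. Alternatives were no background correction, an offset of 50, median scaling, the ratios, other filters, another variance model, the replicate block, the mean of a gene's probes and each array left out.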

Additional observations from a re-analysis of the deposited data

How the results depend on the processing

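Of the channel genes, 5 were higher and 4 lower as reported, and the same counts were found with a trended and robust variance, without background correction, with an offset of 50, with median scaling, with the mean of a gene's probes and the replicate block. The replicate block gave 5 channel probes higher and 6 lower and, for all probes, 1417 higher and 1463 lower. Leaving out each array gave 5 channel genes higher throughout and 2 to 4 lower, 5 or 6 channel probes higher and 4 to 6 lower, 4 to 6 genes of the further lists higher and 3 to 6 lower, and 1027 to 1355 probes higher and 991 to 1370 lower over the array. The lowest counts over the array came without control replicate 2 (1027 and 991) and knockdown replicate 3 (1029 and 1004), and the 2 lower channel genes without control replicate 3. In the authors' ratios 907 probes were lower over the array, against 1619. With the stricter filter, detection p under 0.01 on all 6 arrays, only 17 channel probes were tested, so that 3 channel probes, 2 channel genes and 3 genes of the further lists were higher. The median change of channel genes stayed between -0.07 and 0.02. Of the 10 brightest uncalled channel genes, the only uncalled ones refitted by name, 4 turned sign, none with a call. Kcnc4 was at 0.012 under median scaling and 0.14 in the authors' ratios, and Kcnab2 at 0.0148 in the ratios. The median over all tested probes was 0.0903 in the ratios and -0.0063 as reported. With arrays left out, Kcnc4 ranged from -0.111 to 0.124, Kcnab2 from -0.214 to 0.0132, Kcnk6 from -0.0186 to 0.149 and Kcnip3 from -0.107 to 0.374. The causes were not tested. The signal over background limits what can be seen of the 78 channel genes that were not tested.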

Other observations

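Some channel genes below the level needed for a test were above background on 1 or 2 arrays. Scn8a, a sodium channel pore of neurons, was above background on 2 knockdown arrays and no control array, with intensities of 3.4, 7.4 and 14.0 in control and 22.3, 7.8 and 20.7 in knockdown samples, so the groups overlapped. Kcna3, a voltage-gated potassium channel of lymphocytes, read 3.5, 5.1 and 10 against 24, 15.7 and 12.9, with no overlap. Cacna1d, an L-type calcium channel pore, was above background on 2 control arrays and no knockdown array, at 14.9, 25.4 and 16.4 against 11.3, 11.8 and 5.2, also without overlap. In a fit over all 25697 probes, limma gave these genes adjusted p of 0.365, 0.0913 and 0.123, and none was called. The only untested channel probe called in that fit was the second one for Scn3b (log2 change 0.33 ± 0.09, SE; n = 3; limma adjusted p = 0.0470), which was below background on all 6 arrays. These genes were chosen after their values were seen. Groups without overlap also occurred among channel probes at background, and their share over all untested probes was not counted. A Kcnj15 probe, for example, had intensities of -20.5 to -16.6 in control and -14.4 to -12.8 in knockdown samples.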
